A study of Microtus ochrogaster with 46 samples.

Results

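This account covers 150 genes of the vole nucleus accumbens whose mean level was lower after 24 h with an opposite-sex partner than in naive animals, in females and in males alike. They were taken from the 17479 genes of the table. A gene qualified if its mean normalized count was at least 50 and if both sexes showed a drop of at least 0.15 on the log2 scale. Members were thus chosen by the measured log2 group means of naive and 24 h animals. The smaller of the female and the male drop (naive mean minus 24 h mean, here called D) ranked the genes, and the 150 highest formed the list. The 24 h difference is therefore what defined these genes. It is only described below, and the limma counts given for it are not independent of the choice. The libraries of animals paired for 3 weeks took no part in the ranking. They entered only the minimum level and, for females, the filter on Avpr1a given below.

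The animals were prairie voles (Microtus ochrogaster), sampled by tissue punches of frozen brain sections. Naive animals had shared a cage with a littermate of their own sex for 3 weeks, and paired animals had been with a partner of the other sex, some for 24 h and some for 3 weeks. The female groups held 10 naive animals, 10 at 24 h and 9 at 3 weeks, and the male groups 6, 6 and 5. Each library is a separate animal in the series' description. That description gives 6 females at 3 weeks, and the sample titles give 9. No strain, genotype or age is given in the sources used here. Since naive animals kept a familiar cage mate, the partner, mating and a change of cage mate cannot be told apart.

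The nucleus accumbens is the ventral part of the striatum and is built mostly of inhibitory medium spiny neurons that receive dopamine from the midbrain. In prairie voles, which form lasting bonds with a mate, dopamine, oxytocin and vasopressin signalling in this and neighbouring regions has long been tied to the making and keeping of the bond. The first day with a partner is commonly studied as the time at which the bond forms, and several weeks as the time at which it is maintained. The punches hold neurons, glia and vessel cells together, so fewer cells of a type and less RNA per cell cannot be told apart.

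The rows carry gene identifiers, and only 1 row carries a symbol, that of the vasopressin receptor gene Avpr1a. Of 17478 identifiers, 0 were paired with a symbol by the reference table used here, so none of the 150 genes can be named by function and the punches could not be checked against marker genes. Estimated depth was 15.4 to 37.8 M reads per library (M for mega), with a median of 29.1 M. The authors' normalization also held a factor for each gene in each library, and this factor set 11 libraries apart: the 6 from naive males and the 5 from males at 3 weeks. Among 629 genes low enough to read it, the factor differed between males at 24 h and naive males by a median of 0.069 (absolute log2 difference), against 0.0084 over 1606 genes between females at 24 h and naive females. In males the 24 h comparison, the comparison of 3 weeks with 24 h, and the comparison of the sexes at 3 weeks all run across this difference. There the normalization and the group cannot be told apart.

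Genes lowered by 0.15 or more in both sexes numbered 577 among the 12296 with a mean of at least 50. For scale, 414 genes were higher by as much in both sexes, 301 were lower in females and higher in males, and 226 were higher in females and lower in males. From the 577, 17 genes were dropped because they followed or opposed Avpr1a across females (absolute r of 0.7 or more over the 29 female libraries, group means removed), which left 560. D ran from 1.10 in the first member to 0.2457 in the last, with a median of 0.30, and the first gene not taken had 0.2453. The last member had dropped by 0.29 in females and 0.25 in males, and the first gene outside by 0.25 in each sex, so nothing in these values separates the list from the 410 genes that followed. The smaller drop was that of females in 74 members and that of males in 76.

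The members were low in level and variable between animals. Their median mean normalized count was 137, against 762 for all genes with a mean of at least 50. A mean under 100 was found in 36.0% of members and in 9.60% of all such genes, and a mean of 1000 or more in 8.00% and 42.2%. The median SD within groups was 0.44 on the log2 scale in members and 0.19 in all such genes, and 148 of the 150 members lay above that second value. In 121 members the SD within groups was larger than D. The part of this spread in the rank of a gene was not tested.

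A list level was taken for each library as the median over the 150 genes of the log2 value minus the gene's mean of the 6 group means. Naive females ran from -0.08 to 0.44 with a median of 0.22, and females at 24 h from -0.59 to 0.09 with a median of -0.15. Naive males ran from 0.09 to 0.29 with a median of 0.17, and males at 24 h from -0.41 to -0.05 with a median of -0.17. The groups overlapped in females, where naive replicates 3 and 6 lay below 24 h replicate 8, and did not overlap in males. Females at 3 weeks ran from -0.19 to 0.24 with a median of 0.13. The 5 males at 3 weeks stood at 0.05, -0.11, 0.23, 0.05 and -0.04. Libraries at 3 weeks thus overlapped both the naive and the 24 h libraries of their sex, with replicate 6 the lowest of the females and replicate 2 the lowest of the males. Depth ran weakly with this level: r with log2 depth was 0.15 over the 46 libraries with group means removed, and 0.39 over the 14 libraries at 3 weeks.

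**Figure D1:**
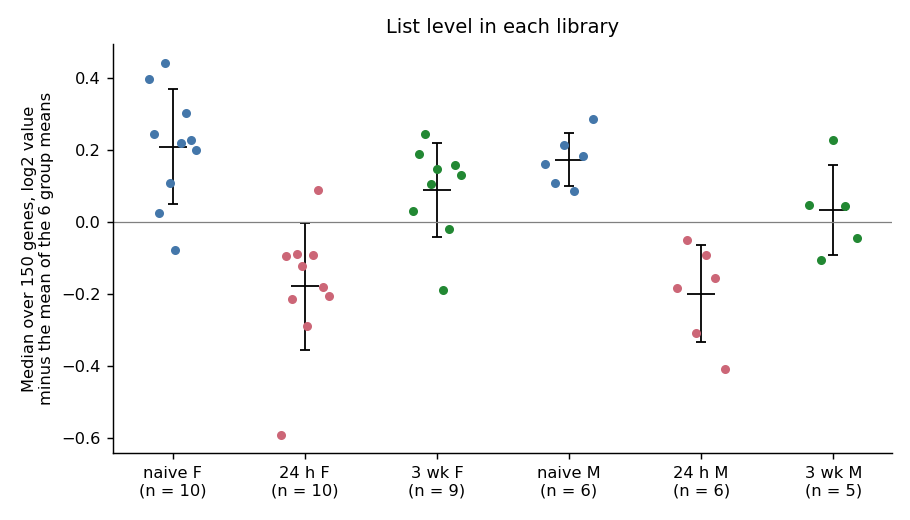
The vertical axis is the median over the 150 genes of the log2 value minus the gene's mean of the 6 group means; each point is 1 library, and black bars are the group mean and SD. Naive and 24 h libraries were used to choose the genes, so their distance is set at least in part by the choice. The 3 week libraries took no part in the ranking and lie between -0.19 and 0.24.

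The median 24 h change over the members was -0.36 in females and -0.35 in males, as the choice requires, beside -0.004 and 0.002 over all 12296 genes. By limma, 1 of the 150 members passed as lower in females at 24 h, where 0.0692% of all 14455 tested genes did (adjusted p under 0.05). In males 0 members passed by limma, where 0.159% of all tested genes did. At an unadjusted p under 0.05 by limma, 70 members were lower in females (46.7%, against 9.40% of all tested genes) and 31 in males (20.7%, against 6.25%). With both sexes averaged 22 members passed as lower, where 1.36% of all tested genes did. These counts come from the comparison that chose the genes and are given as a description.

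How much of the drop came from the choice was described by repeating it without each naive or 24 h library in turn and then measuring the library that had been left out. Each such library was compared with the mean of the 3 week libraries of its own sex, which took no part in the ranking. In females the left-out naive libraries had a list median of -0.21 to 0.26, above 0 in 7 of 10. The left-out 24 h libraries had -0.49 to 0.13, below 0 in 9 of 10. The mean difference between 24 h and naive females was -0.20 when the measured library was left out and -0.38 when it was in.

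In males the separation was not seen in libraries that had been left out. The 6 naive males then stood at 0.07, -0.08, 0.03, -0.08, -0.05 and 0.12, above 0 in 3. The 6 males at 24 h stood at -0.04, 0.16, -0.15, 0.10, 0.03 and -0.27, below 0 in 3. The mean difference between 24 h and naive males was -0.03 in left-out libraries and -0.38 with the libraries in the choice. The range of the naive males then lay inside that of the males at 24 h. Between 112 and 140 of the 150 members were chosen again in these 32 repeats, with the lowest numbers in males. The difference between the sexes in these values was not tested.

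**Figure D2:**
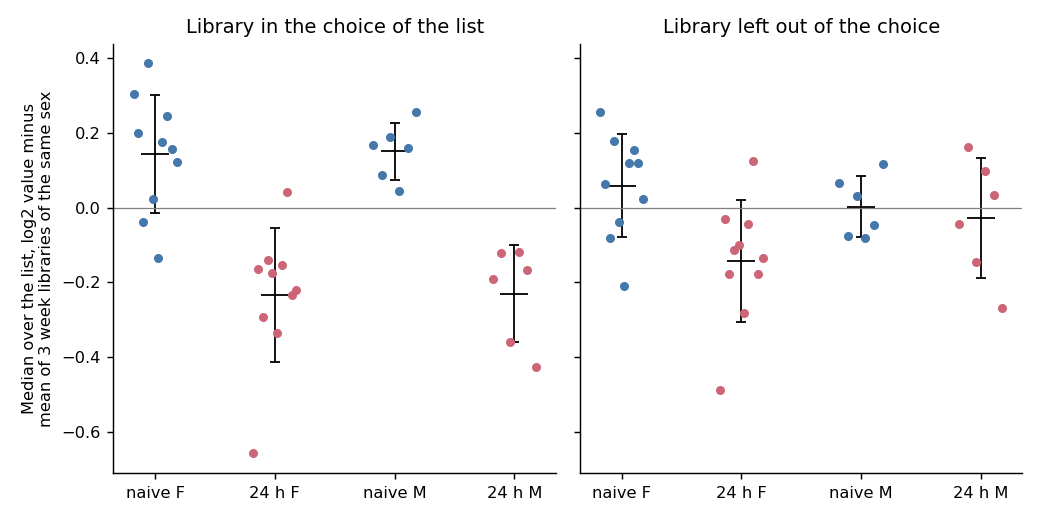
Each point is 1 library, and the vertical axis is the median over the list of its log2 value minus the mean of the 3 week libraries of the same sex; bars are mean and SD. On the left the library helped to choose the list; on the right the list was chosen without it, and the 6 naive males and the 6 males at 24 h overlap around 0 while 9 of 10 females at 24 h stay below 0.

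A list chosen in 1 sex was also measured in the other, an alternative added after the data were seen. The 150 genes with the largest drop in females alone had a median change of -0.61 there and of -0.06 in males, with 86 of 150 lower in males at 24 h (57.3%, against 49.3% of all 12296 genes). The 150 genes with the largest drop in males alone changed by a median of -0.58 there and of -0.02 in females, with 81 of 150 lower (54.0%, against 50.9%). Of the 150 members described here, 34 were in the list of females and 39 in that of males.

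The 2 members with the highest D varied widely between animals. ENSMOCG00000001283 stood first. Its log2 level in naive females ran from 6.81 to 8.82 with a median of 8.33, and in females at 24 h from 2.68 to 8.74 with a median of 7.53. Naive males ran from 6.37 to 8.33 (median 7.57) and males at 24 h from 0 to 8.50 (median 7.39). Females at 3 weeks ran from 0 to 8.67 (median 7.53), and the 5 males at 3 weeks stood at 6.11, 6.70, 5.69, 6.74 and 0. The groups overlapped in both sexes, and the gene was listed at 0 in 3 animals, namely male 24 h replicate 1, female 3 week replicate 6 and male 3 week replicate 5. Without male 24 h replicate 1 its D was -0.18 in place of 1.10, which is no drop in males.

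ENSMOCG00000010773, second in D, had 2 separate levels among the animals. In 13 of the 46 libraries its log2 level was between 11.52 and 12.72, in the other 33 it was between 0 and 7.68, and none lay between. The high level was found in 4 of 10 naive females, 4 of 10 females at 24 h, 2 of 9 females at 3 weeks, 1 of 6 naive males, 2 of 6 males at 24 h and 0 of 5 males at 3 weeks. Among the low animals the mean was 5.85 in naive females and 4.28 in females at 24 h, and 5.21 in naive males and 1.59 in males at 24 h. The low animals at 24 h included 1 female and 2 males listed at 0. The males at 3 weeks stood at 4.20, 3.83, 3.53, 2.36 and 5.67. A group mean of this gene thus joins 2 levels. Its SD within groups was 3.74. The number of high animals was not smaller at 24 h than in naive animals of either sex, and the low animals had the lower mean at 24 h in both.

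Over the whole list 109 members kept a D of 0.15 or more whichever 1 library was left out, 41 fell under it in at least 1 case (27.3%), and 11 of these fell to 0 or under. Of the 14 members with a D of 0.5 or more, 4 fell under 0.15 (28.6%), a share near that of the list, and the median SD within groups of the 14 was 1.38. Members listed at 0 in at least 1 library numbered 4: the 2 just described, ENSMOCG00000006340 and ENSMOCG00000008569, named after their values were seen. Male 24 h replicate 6 was the library whose absence lowered D most in 8 of the 41.

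**Figure D3:**
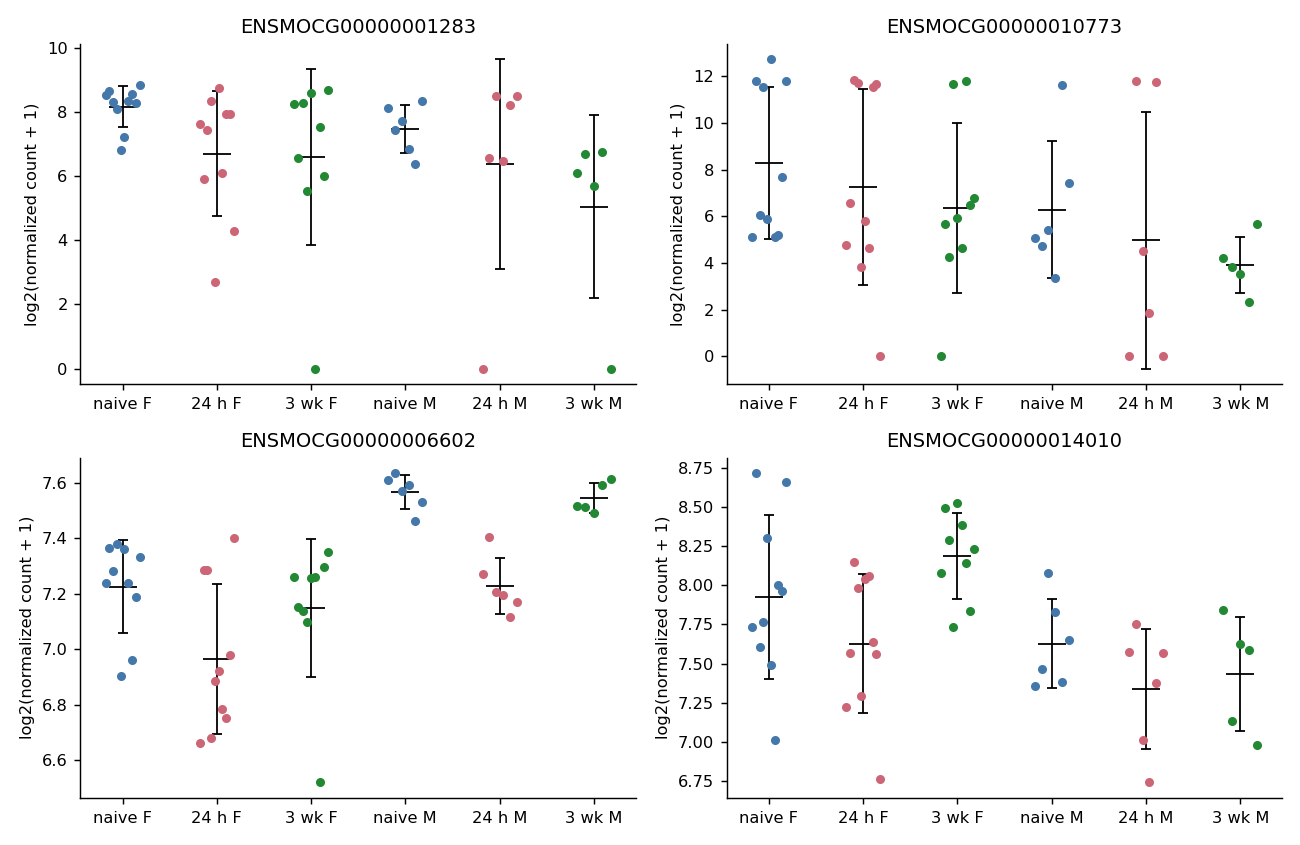
Each panel is 1 gene, with log2(normalized count + 1) of every library on the vertical axis and the group mean and SD as black bars. The upper panels hold the 2 genes with the highest D, where single animals were listed at 0 and, on the right, 13 animals stood at 11.52 or more; the lower panels hold the 2 members that differed between the sexes at 3 weeks.

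The 22 members that passed with the sexes averaged were picked by a test on the libraries that chose the list, and at a given drop such a test takes genes of low spread. Their values are therefore a description. Their median SD within groups was 0.27 where that of all 150 was 0.44, their median mean normalized count 220, and the first of them was rank 12 in D. In 21 of the 22 D stayed at 0.15 or more without any 1 library. ENSMOCG00000021620 was the member that also passed in females alone, and was named after its values were seen. It ran from 8.05 to 8.71 (median 8.33) in naive females, from 7.52 to 8.12 (median 7.92) in females at 24 h and from 7.94 to 8.49 (median 8.25) in females at 3 weeks. In naive males it ran from 8.10 to 8.42 (median 8.25) and in males at 24 h from 7.75 to 8.28 (median 8.04). The males at 3 weeks stood at 8.14, 8.01, 8.25, 8.35 and 8.32. Naive and 24 h animals overlapped in each sex, and in males the naive median lay inside the 24 h range.

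In males every naive library stood above every 24 h library in 2 of the 150 members, where 0.913% of all tested genes had no overlap in that direction. In females this held for 0 of 150 members and 0% of all tested genes. The pair, named after their values were seen, were ENSMOCG00000006602, described below, and ENSMOCG00000012896. The latter ran from 9.85 to 10.19 (median 10.06) in naive males and from 9.20 to 9.84 (median 9.71) at 24 h. Its males at 3 weeks stood at 9.77, 9.46, 10.16, 10.09 and 9.83, across both ranges. In females it overlapped, with 9.36 to 10.29 (median 9.79) in naive animals and 9.01 to 9.94 (median 9.57) at 24 h.

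At 3 weeks the members lay between the 24 h and the naive level on average. The place of the 3 week mean was set to 0 at the 24 h mean and to 1 at the naive mean of the same sex. The median place was 0.64 in females (quartiles 0.35 and 0.92) and 0.63 in males (quartiles 0.24 and 1.01). Over all 12296 genes, lowered or raised, the median place was 0.59 in females and 0.73 in males, so the places of the members were near those of genes in general. Genes picked for a high naive and a low 24 h mean have both ends of this scale set by the libraries that picked them, and no test was made.

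In females the 3 week mean was at or under the 24 h mean in 14 members, in the lower part of the interval in 40, in the upper part in 64, and at or above the naive mean in 32. In males these numbers were 31, 28, 52 and 39. Nearer to naive than to 24 h were 96 of 150 members in females and 91 in males, with 62 in both sexes, 34 in females only, 29 in males only and 25 in neither. The median place over all 12296 genes was also nearer to naive, at 0.59 in females and 0.73 in males. These counts are therefore not read as a trait of the members. Among the 22 members above, 15 were nearer to naive in females, 20 in males and 13 in both, with median places of 0.70 and 0.76. The male place moved both ways with single animals. Its median was 0.48 without male 3 week replicate 3 and 0.72 without male 3 week replicate 2.

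The underlying differences were small. At 3 weeks the median member differed from naive animals by -0.13 in females and -0.16 in males, and from 24 h animals by 0.23 and 0.24. All genes had medians of -0.01 to 0.00 there. Above the 24 h mean were 136 members in females and 119 in males (90.7% and 79.3%, against 49.7% and 48.0% of all genes), a comparison that reuses the 24 h libraries of the choice. All genes there include those raised at 24 h, so the shares are not alike. A 3 week mean on the naive side of the 24 h mean (a place above 0) was found in 77.5% of all genes in females. In males it was found in 76.7%, close to the 79.3% of members. By limma 0 of the 150 members passed in any of these 4 comparisons. At 3 weeks against 24 h, 0% of all tested genes passed as higher in females and 0.0208% in males. At an unadjusted p under 0.05 by limma, 32 members were higher in females (21.3%, against 4.16% of all tested genes) and 20 in males (13.3%, against 5.26%), again with the 24 h libraries of the choice. Against naive animals 5 members were lower in females at an unadjusted p under 0.05 (3.33%, against 2.37%) and 4 in males (2.67%, against 1.27%), and these shares reuse the naive libraries of the choice.

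**Figure D4:**
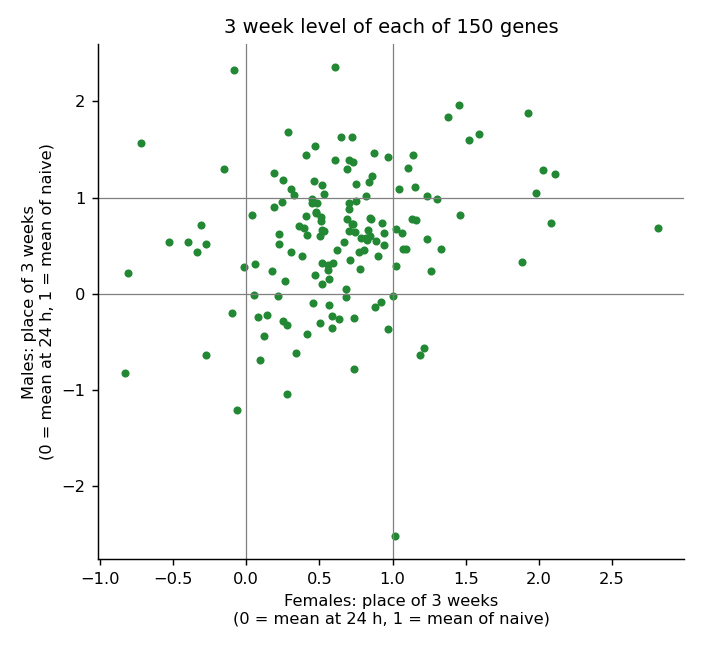
Each of the 150 points is 1 gene; the horizontal axis is the place of its 3 week mean in females and the vertical axis that in males, on a scale with 0 at the 24 h mean and 1 at the naive mean. The cloud is centred at 0.64 and 0.63, and 62 genes were nearer to naive than to 24 h in both sexes. Over all 12296 genes the median places were 0.59 in females and 0.73 in males.

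The comparison of the sexes at 3 weeks is the 1 comparison of groups in which no library had ranked the genes, and it was tested. The median difference between males and females over the members was -0.03, with 66 members higher and 84 lower in males, beside -0.01 over all genes. Rescaling libraries to the same total gave 0.01, so no direction is read from it. By limma 1 member passed as higher in males, where 1.53% of all tested genes did, and 1 as lower, where 1.66% did. Each is 0.667% of the members. All genes called split into 221 higher and 240 lower in males, and into 414 and 143 when libraries were rescaled to the same total.

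ENSMOCG00000006602 was higher in males. It ran from 6.52 to 7.35 (median 7.26) in females at 3 weeks, while the males stood at 7.52, 7.51, 7.49, 7.59 and 7.61, above every female. Males exceeded females by 0.40 in log2 level, with an SE of 0.11 and an adjusted p of 0.0433 by limma. Every male above every female at 3 weeks was seen in 1 of the 150 members, this gene, and in 0.533% of all tested genes; the reverse was seen in 0 members and in 0.63% of all tested genes. The gene was also higher in males in the other conditions, at 7.57 ± 0.06 (SD, n = 6) against 7.22 ± 0.17 (n = 10) in naive animals and 7.23 ± 0.10 (n = 6) against 6.96 ± 0.27 (n = 10) at 24 h. At 24 h the sexes overlapped, with males from 7.12 and females up to 7.40. The part of the normalization in these differences was not tested.

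ENSMOCG00000014010 was lower in males. It ran from 7.74 to 8.52 (median 8.23) in females at 3 weeks, and the males stood at 7.85, 7.13, 7.62, 7.59 and 6.98, with 1 male inside the female range. The male mean minus the female mean was -0.75 in log2 level, with an SE of 0.22 and an adjusted p of 0.0454 by limma. Its means were 7.63 ± 0.28 (SD, n = 6) and 7.92 ± 0.53 (n = 10) in naive males and females, and 7.34 ± 0.38 (n = 6) and 7.63 ± 0.45 (n = 10) at 24 h.

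Both calls stood close to the threshold. That of ENSMOCG00000006602 was lost without female 3 week replicate 2, 3, 4, 5 or 7 or male 3 week replicate 1, 2, 4 or 5, at differences of 0.32 to 0.42 and adjusted p of up to 0.11 by limma over all single omissions. That of ENSMOCG00000014010 was lost without female replicate 1, 2, 3, 5, 7 or 9 or male replicate 1, 2, 4 or 5 at 3 weeks, at -0.86 to -0.64 and adjusted p of up to 0.148 by limma. By limma 0 of the 150 members passed for a 24 h change that differed between the sexes. Of all tested genes 0.0484% passed as lower in males. At an unadjusted p under 0.05 by limma there were 0 members, against 4.69% (lower in males) and 4.34% (higher) of all tested genes. The rule ranked genes by the smaller of the female and male drops, which disfavours such differences. These counts therefore do not show that the sexes changed alike. For the 3 week change 0 members passed by limma, and 0% of all tested genes did. With p under 0.05 before adjustment (limma), 1 member had a change higher in males (0.667%, against 1.48% of all tested genes). A change lower in males was found at that level in 0 members, against 1.66%.

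The members did not vary as 1 unit within groups. With group means removed, the median correlation between 2 members was 0.08 over the 46 libraries and 0.08 over the 14 libraries at 3 weeks, against 0.00 for all pairs of genes in both. The first principal component held 19.4% of the standardized variance of the members within groups, and the second 8.36%. Average-linkage clustering at a distance of 0.6 (1 minus r) gave 60 clusters, 26 of them single genes. The 3 clusters of at least 10 genes are called blocks A, B and C here and hold 18, 16 and 16 members. The other 100 members were in none. Within blocks the median r over the 14 libraries at 3 weeks was 0.63, 0.51 and 0.63, in libraries that also helped to form the blocks.

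At 24 h block A had dropped by a median of 0.43 (females) and 0.37 (males). Its median place at 3 weeks was low, at 0.39 and 0.29. Its level at 3 weeks ran from -0.45 to 0.46 around the mean of the groups in males and from -0.81 to 0.57 in females. At 3 weeks 15 of its 18 members had lower means in males than in females (median difference -0.27). Of all 12296 genes 48.9% had higher means in males there. The members vary together by the way the block was formed, so they are not separate cases. The mean level of block A was also lower in males in the other conditions, with overlapping ranges. It was 0.11 in naive males against 0.28 in naive females, and -0.28 against -0.11 at 24 h. Male 24 h replicate 6 was the lowest library in this block, at -0.93, and female 3 week replicate 6 the next, at -0.81.

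Block B had dropped by 0.33 in females and 0.31 in males, with median places of 0.88 and 0.57. In females at 3 weeks 15 of its 16 members were nearer to naive than to 24 h, and in males 8 of 16. At 3 weeks 14 of 16 members, which again vary together, had lower means in males (median difference -0.34). The level of the block there ran from -0.50 to 0.20 in males and from -0.23 to 0.52 in females, so the sexes overlapped. The mean level of block B was also lower in males in the other conditions, with overlapping ranges. It was 0.005 in naive males against 0.26 in naive females, and -0.31 against -0.11 at 24 h. Female 24 h replicate 1 was the lowest library, at -1.12, and the other females at 24 h ran from -0.33 to 0.43.

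Block C had dropped by 0.40 in females and 0.28 in males, with places of 0.72 and 0.65. Members lower in males at 3 weeks were 8 of 16, with a median difference of 0.01. Its level was -0.03 to 0.34 in naive males, -0.28 to 0.09 in males at 24 h and 0.00 to 0.23 in males at 3 weeks, so naive and 24 h males overlapped in part. Of the 22 members above, 7 were in block C, 2 in block A and 1 in block B.

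**Figure D5:**
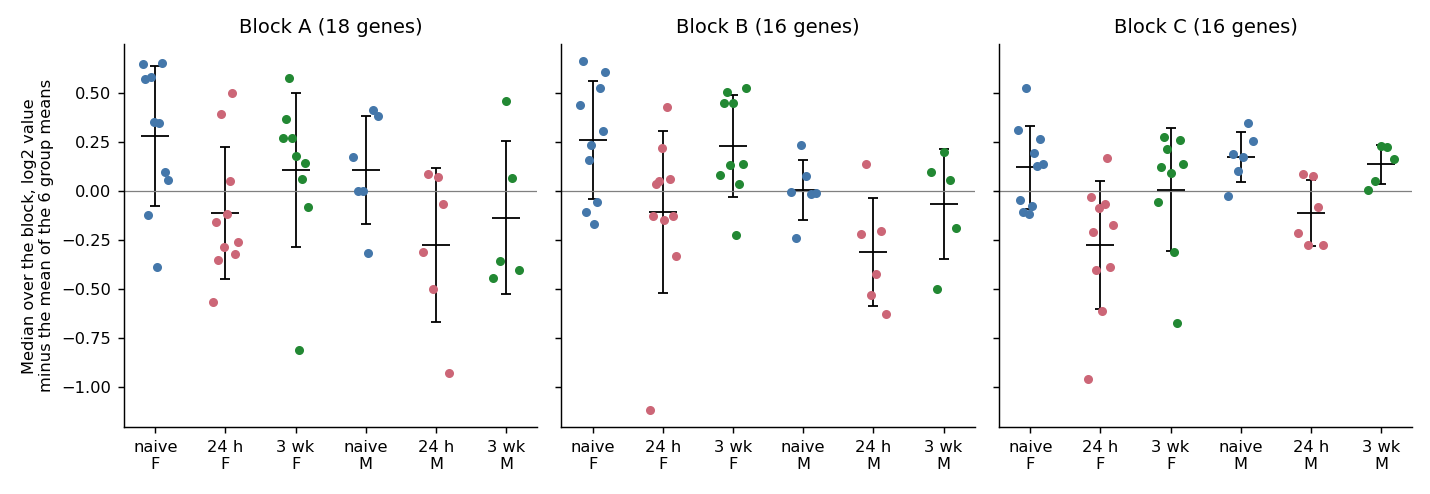
Each point is 1 library, the vertical axis is the median over the block's genes of the log2 value minus the gene's mean of the 6 group means, and black bars are group mean and SD. Female 24 h replicate 1 is the lowest point of blocks B and C, and female 3 week replicate 6 is far below the other females at 3 weeks in block A.

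Avpr1a, a receptor through which vasopressin acts in the brain, was used to filter the list in females only. The rule did not use its relation to the members in males. The naive and 24 h males did help to rank the genes, by their group means, which were removed here. Over the 17 males, group means removed, the median r of members with Avpr1a was -0.15, against 0.01 for all 12296 genes. Negative values were found in 107 of 150 members and in 49.1% of all genes. A value of -0.5 or less was found in 24 members (16.0%, against 6.86% of all genes) and one of 0.5 or more in 1 (0.667%, against 7.86%). Block B ran most strongly opposite, with a median of -0.57 in males and -0.55 in females, followed by block A with -0.41 and -0.17, while block C was at -0.09 and -0.12. The female values were limited by the filter, which had dropped genes with an absolute r of 0.7 or more. Members of a block vary together, so the counts of members are not counts of separate cases. The points share libraries, depth and normalization, and these values are a description.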

How the data were processed

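RNA from nucleus accumbens punches of 46 prairie voles was sequenced as unstranded poly(A) libraries, per the labels' protocols. The submitters' processing notes name Salmon 0.12, DESeq2 (no version), fastp 0.14.1, bcl2fastq 2.20.0.422 and FastQC 0.11.7. Build and annotation: not given in the sources used here. What the authors deposited is 1 table whose values, from their range, are log2 of a normalized count plus 1. Undoing the log gave the value of 1 read and the estimated depth; 50.3% to 91.8% of values of up to 3 reads lay within 0.1 of a whole number, so no count model was used. Libraries were grouped by their titles, and 0 columns lacked a sample.

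The list and the tests were chosen with earlier results of these data known. Values were tested with limma 3.58.1 (R 4.3.3; trend, robust) in 1 fit of 6 group means, in the 14455 genes whose mean normalized count reached 10, with a pseudocount of 1 and Benjamini-Hochberg adjustment per comparison at 0.05. The fit was also run on simulated data, and no result given here rests on that run. Fold changes on this scale understate those of low genes. Genes were named by rule as the 2 highest in D and, at 3 weeks, up to 2 members called in each direction; others are marked as chosen after their values were seen. Clustering used scipy 1.17.1. Same-numbered libraries are not said to be paired. No 2 libraries looked alike: the smallest SD of a log2 difference between libraries was 0.161 over 5186 genes, against 0.065 from counting alone.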

Additional observations from a re-analysis of the deposited data

Results flagged for a closer look

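The list level, 3 blocks and 4 genes named by rule gave 48 sets of values over the 6 groups. In 6 sets an animal's distance to its nearest neighbour was a large share of the whole range. Chance gives about 1 in 20 if the sets are independent. These sets overlap, and some of their genes were picked on the same libraries, so the 6 are not held against that rate. ENSMOCG00000001283 was listed at 0 in female 3 week replicate 6, male 24 h replicate 1 and male 3 week replicate 5, where the nearest other animals of those groups stood at 5.53, 6.47 and 5.69. ENSMOCG00000006602 stood at 6.52 in female 3 week replicate 7, with the other females at 3 weeks at 7.10 to 7.35; without it the difference between the sexes was 0.32. Block A stood at -0.81 in female 3 week replicate 6, with the others at -0.08 to 0.57. Block B stood at -1.12 in female 24 h replicate 1, with the others at -0.33 to 0.43. Without female 24 h replicate 1 the median change of all members in females at 24 h was -0.32 in place of -0.36.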

How the results depend on the processing

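Pseudocounts of 5 and 0.1, quantile normalization, rescaling to the same total and leaving out each library kept the direction of the median 24 h change and of the median 3 week differences of the members in both sexes. For the 24 h change this was largely fixed by the choice, since the same 150 genes were measured under each setting. Without 1 library the median 24 h change was -0.39 to -0.32 in females and -0.39 to -0.32 in males. The list itself was less stable. Of the 150 members 112 to 150 were chosen again without 1 library, but 83 with group medians in place of means. With the list chosen again without the library measured, the 24 h difference was -0.20 in females and -0.029 in males, and with the list chosen in the opposite sex alone it was -0.023 in females and -0.057 in males.

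Between the sexes at 3 weeks, genes called higher and lower in males numbered 221 and 240. Array weights gave 1096 and 1061, rescaling to the same total 414 and 143, a fit of the 2 groups alone 142 higher, and leaving out 1 library 42 to 485 and 50 to 488, the lowest without male 3 week replicate 2 and the highest without male 3 week replicate 3 (higher) and female 3 week replicate 6 (lower). Members called higher numbered 0 with quantile normalization, no filter and the fit of the 2 groups alone, 2 with array weights and 0 to 2 without 1 library. Members called lower numbered 2 with quantile normalization, a minimum mean of 100 and the fit of the 2 groups alone, 0 with no filter, 10 with array weights and 0 to 4 without 1 library. The cause was not tested.

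With the replicate block (the replicate number as a term) 0 members were called higher and 0 lower by limma; all genes called were 185 and 170. The sources do not say that the number pairs the animals. Between conditions, same-numbered libraries of a sex correlated at a mean r of 0.01 in females and -0.02 in males in their deviations from group means. Same-numbered females and males of a condition were not compared, so a pairing between the sexes was not tested.

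Each member has a mean normalized count of at least 50, and the groups hold 5 to 10 animals.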
